A study of Bos taurus with 55 samples.

Results

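The genes described are 9 complement and macrophage genes, named as a list: C1QA, C1QB, C1QC, C3, CFB, COLEC12, FCER1G, TYROBP and AIF1. Of these, 8 had a probe set (a group of probes for 1 transcript) among 10680 probe sets tested, which covered 6636 named genes. C1QC had none under its symbol and was not analysed here. Probe sets of the 8 were picked by symbol, without a filter on level, and each gene had 1. The list itself was chosen with earlier results of these data known.

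Mammary gland biopsies came from 28 Holstein-Friesian cows in mid-lactation, and the study asked what plant oils rich in unsaturated fatty acids do to gene expression there. In period I the ration carried 2.7% of an oil for 23 days, with 7 cows on each: rapeseed oil, which supplies oleic acid, soybean oil, which supplies linoleic acid, linseed oil, which supplies alpha-linolenic acid, or the 3 mixed in equal parts. In period II every cow ate a control ration with no oil supplement for 28 days. They grazed ryegrass and clover by day and were fed silage and concentrate at night. Biopsies were taken at a mean of 176 days in milk in period I and of 204 in period II. Arrays numbered 28 in period I and 27 in period II, because 1 cow on linseed oil had only the first. Oil feeding always came first, so diet, order of the periods and stage of lactation cannot be told apart. Levels are log2 of the deposited intensities, a change is the oil period minus the control period within a cow, and a gene is said to have fallen or risen only at an adjusted p under 0.05.

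Complement is a protein cascade that tags microbes and dying cells. C1QA, C1QB and C1QC encode the chains of C1q, which binds antibody and cell debris and starts the classical pathway, and tissue macrophages are a main source of them. All activation routes meet at C3, whose cleaved fragment coats targets, and factor B, encoded by CFB, joins it in the alternative pathway. Both are also made by epithelial cells, and complement proteins pass into milk. FCER1G and TYROBP are signalling adapters of immune receptors in myeloid, NK and mast cells, AIF1 is an actin-binding protein of macrophages, and COLEC12 is a scavenger receptor of the collectin family found on endothelium and stroma.

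The median log2 intensity of an array lay between 3.24 and 3.60. Each array was correlated with all others, and the mean r was at least 0.961 in 48 arrays and 0.911 to 0.951 in 7 arrays from 6 cows. These 7 are called apart below, and results that rest on them are also given without the 6 cows. The array names carry 2 prefixes, taken as array batches: period I had 25 arrays in batch 1 and 3 in batch 2, and period II had 2 in batch 1, both apart, and 25 in batch 2.

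Of the 8 measured genes, 4 fell in the oil period and 0 rose. FCER1G, CFB, C3 and C1QA were the genes that fell. Over all probe sets 34.4% were called, 15.6% lower and 18.8% higher, and the median change was 0.03. The median change of the 8 genes was -0.56, and 6 of the 8 had a change below 0, against 44.3% of all probe sets. Because the list was chosen with earlier results known, these shares are a description and not a test of the 8 genes against all probe sets. Without the 6 cows with an array apart, 5 fell (those 4 and TYROBP) and AIF1 rose, against 3725 of 10680 probe sets called.

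C1QA encodes the A chain of C1q. Its level in the oil period had a lowest value of 4.40, a median of 6.38 and a highest of 8.83 (28 arrays), against 5.68, 6.70 and 9.82 in the control period (27 arrays). The ranges overlapped, and the array with the highest value was apart in both periods. Within cows C1QA was 1.57-fold lower on oil (-0.65 ± 0.21 SE, n = 27 cows, limma adjusted p = 0.0184) and was lower in 20 of 27. In these whole biopsies fewer cells of a type and less RNA per cell cannot be told apart. C1QB, the B chain, had 3.11, 5.21 and 7.71 in the oil period, against 3.65, 5.41 and 8.23 in the control period. Its change was -0.31 ± 0.18 (limma adjusted p = 0.189), below 0 in 19 of 27 cows, and did not pass the test. In the ARS-UCD2.0 gene table the C1Q genes lie together within 4 consecutive protein-coding genes.

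C3 and CFB both fell. C3, the central component, had a lowest level of 8.08, a median of 9.49 and a highest of 10.61 in the oil period, against 7.83, 10.38 and 12.08 in the control period. Its ranges overlapped, with the highest values in the control period, and C3 was 1.80-fold lower on oil (-0.85 ± 0.19, n = 27 cows, limma adjusted p = 0.00119), lower in 22 of 27 cows. CFB, factor B, had 3.20, 4.36 and 10.10 in the oil period, against 3.90, 6.11 and 9.38 in the control period. The ranges overlapped, and the 3 period I arrays apart held the highest oil period values. CFB was 2.18-fold lower (-1.13 ± 0.29, limma adjusted p = 0.00313), in 21 of 27 cows, and the change of single cows ranged from -4.98 to 1.44.

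FCER1G, the common gamma chain of Fc receptors, had the smallest adjusted p of the 8. Its level had a lowest value of 1.27, a median of 2.09 and a highest of 2.70 in the oil period, against 1.92, 2.58 and 4.64 in the control period. It was 1.68-fold lower on oil (-0.75 ± 0.13, n = 27 cows, limma adjusted p = 6.28e-05), with 24 of 27 cows lower. The oil period values lay near the low end of the arrays, where 5% of all values were under 1.44. With 16 added to each intensity before the logarithm the change was -0.22 (limma adjusted p = 9.96e-04). Probe sets with a mean level under 3 were called higher in 22.9% and lower in 11.0% of 4715, so the direction of FCER1G was the less frequent one among them.

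TYROBP, the adapter DAP12, had 3.50, 4.45 and 7.20 in the oil period, against 3.78, 5.03 and 7.80 in the control period. The arrays apart held the 3 highest oil period values and the 4 highest control period values. The change was -0.47 ± 0.21 (limma adjusted p = 0.0837), below 0 in 18 of 27 cows, and without the 6 cows TYROBP fell (-0.47, adjusted p = 0.0447). It also fell without cow 10 or cow 12 alone (adjusted p = 0.0310 and 0.0291), both rapeseed oil cows with a period I array apart. With array weights, which count arrays that depart from the model for less, TYROBP (-0.52, adjusted p = 0.0179) and C1QB (-0.38, 0.0375) fell and AIF1 rose (0.43, 0.0232). In that fit 7 of the 8 genes were called, against 4387 of 10680 probe sets.

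AIF1, often used as a macrophage marker, had a change of the opposite sign to C1QA, C3, CFB and FCER1G. Its levels were 5.30, 6.60 and 8.30 in the oil period, against 5.07, 6.02 and 9.12 in the control period, and the highest array was apart in both. The change was 0.40 ± 0.18 (n = 27 cows, limma adjusted p = 0.0839), above 0 in 18 of 27 cows. Without the 6 cows AIF1 rose (0.43, adjusted p = 0.0272), and also without cow 15 alone (0.50, adjusted p = 0.0132), cow 16 alone (adjusted p = 0.0489) or cow 22 alone (adjusted p = 0.0472). It also rose with each array centred on its median (0.46, adjusted p = 0.0314). COLEC12 had 3.43, 4.53 and 6.06 in the oil period, against 3.74, 4.37 and 5.64 in the control period. Its change of 0.05 ± 0.14 (limma adjusted p = 0.825) was above 0 in 14 and below 0 in 13 cows.

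**Figure D1:**
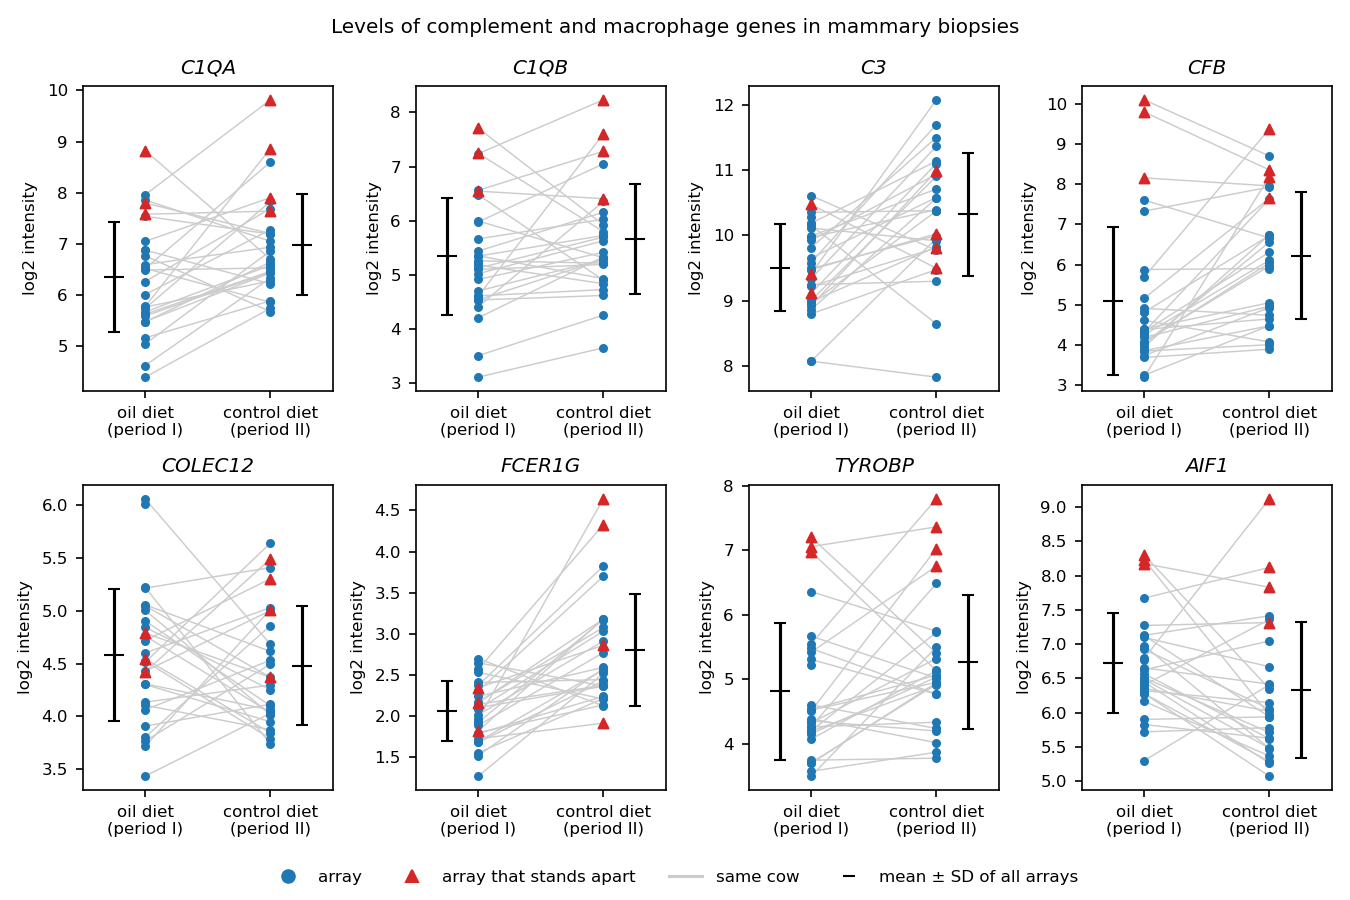
Log2 intensity of the 8 measured genes (y axis) on each array, with the oil period on the left and the control period on the right. Grey lines join arrays of 1 cow, triangles are the 7 arrays apart, and bars give the mean and SD of all arrays. C3, CFB and FCER1G lines mostly slope upward to the control period, AIF1 lines mostly downward, and the triangles lie at the top for TYROBP.

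Period and array batch nearly coincided, and each gene was therefore also fitted within batches. The fits within a batch leave the cow out, so they compare arrays of mostly different cows and not changes within a cow. Between 3 oil period and 25 control period arrays of batch 2 the difference was -0.90 for FCER1G (adjusted p = 0.130), -0.81 for C3 (0.446), -0.51 for C1QA (0.685) and -0.17 for CFB (0.947), with none called. In batch 1, where both control arrays were apart, it was -1.19 for FCER1G (adjusted p = 0.0445), -0.89 for C3 (0.212), -2.03 for C1QA (0.0871) and -3.78 for CFB (0.0679). With cow and batch both in the model, where the estimate rests on 5 cows whose arrays share a batch, 2 of which had an array apart, FCER1G (-0.92, adjusted p = 0.0397), C3 (-1.29, 0.0482) and CFB (-1.95, 0.0433) fell, and C1QA was not called (-0.95, 0.188).

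The running number of the arrays follows the cow number in each period. It runs from 1 to 28 in period I and from 29 to 55 in period II. A fit can therefore separate this number from the period only weakly. In a model with this number in place of the cow, CFB fell (-2.86, adjusted p = 0.0406), whereas C3 (-0.14, adjusted p = 0.839), FCER1G (-0.53, 0.193) and C1QA (-1.34, 0.0888) were not called. AIF1 took the opposite sign in this fit (-0.87, adjusted p = 0.147) and within batch 1 (-0.98, 0.213). With the cow left out of the model, C1QA (adjusted p = 0.0643) and CFB (adjusted p = 0.0544) were no longer called, while FCER1G and C3 were. No single cow changed the call of these 4 genes: with each cow left out in turn the highest adjusted p was 0.0346 for C1QA, 0.00617 for CFB, 0.00247 for C3 and 1.43e-04 for FCER1G.

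**Figure D2:**
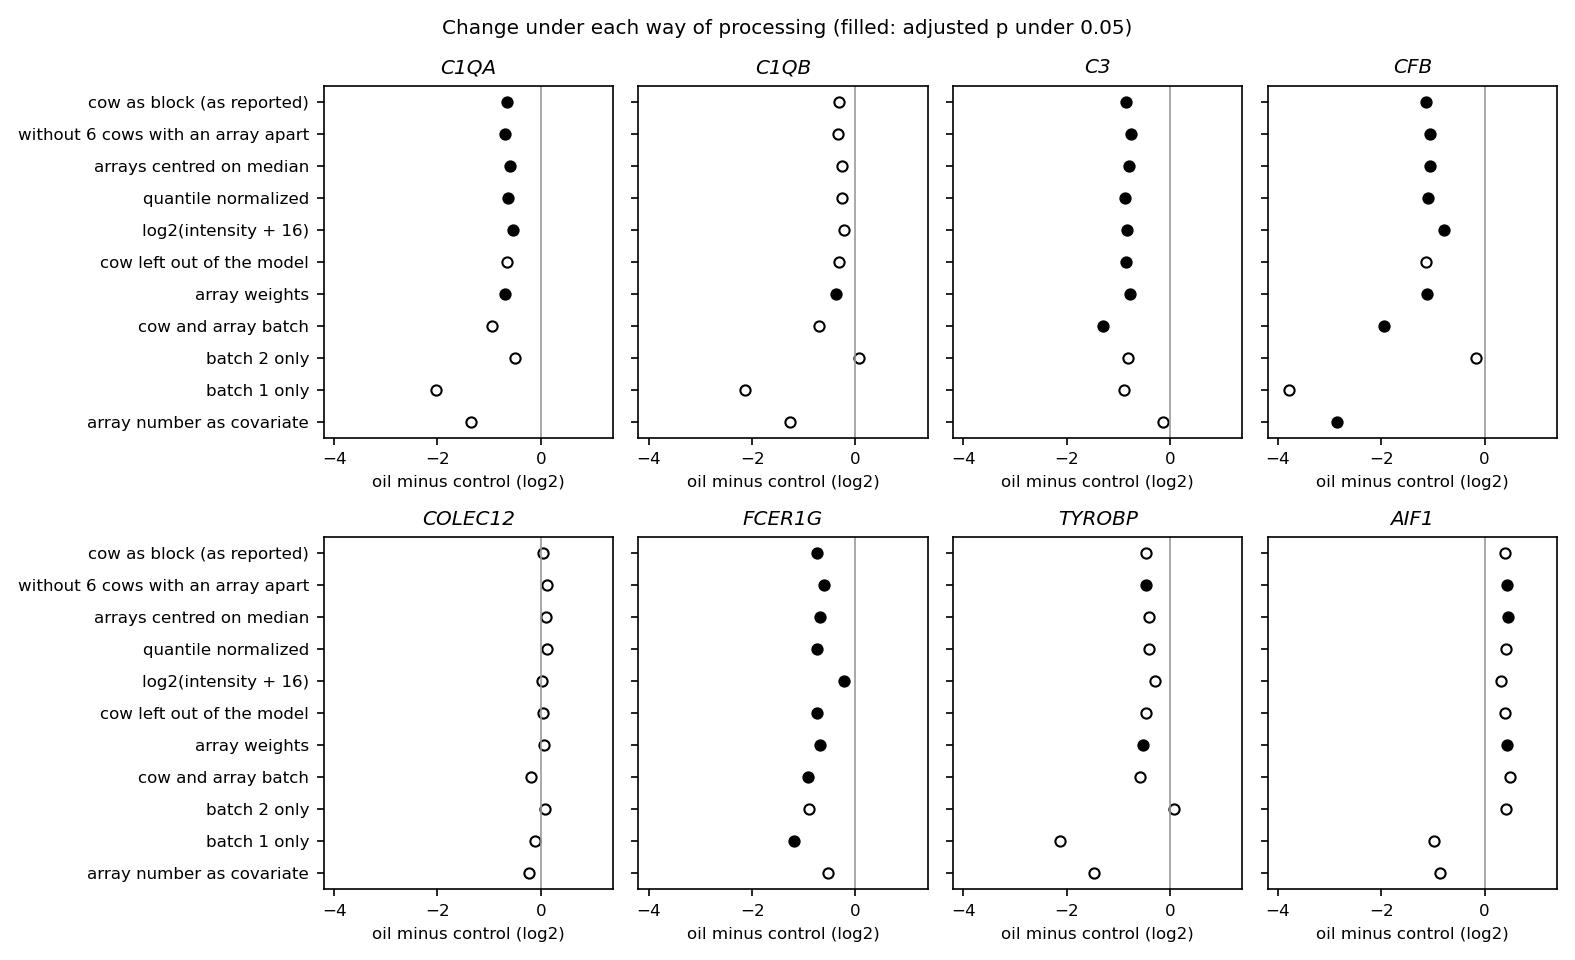
Change of each gene, oil minus control on the log2 scale (x axis), under 11 ways of fitting (y axis), with filled points where the adjusted p was under 0.05. The 4 called genes lie left of 0 in every row, C3 closest to 0 (-0.14) with array number as a covariate, and AIF1 lies right of 0 except within batch 1 and with array number.

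The change was also fitted on each oil, with 7 cows for each oil but linseed, which had 6 with both arrays. On rapeseed oil 2 of the 8 genes fell, C3 and FCER1G, where 3.88% of all probe sets were called, 2.33% lower and 1.54% higher. On soybean oil 2 fell, CFB and FCER1G, against 13.5% of all probe sets called, 7.22% lower and 6.29% higher. On linseed oil 0 of 8 were called by limma (0.89% of all probe sets lower, 1.29% called), and on the mixture 0 of 8 (0.0187% lower, 0.15% called). For linseed oil, COLEC12 (limma p = 0.0273) and FCER1G (0.00211) had an unadjusted p under 0.05, as did 18.5% of all probe sets. For the mixture none of the 8 did, against 13.6% of all probe sets. The oils share no cows, and the control period of each is that of its own cows.

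FCER1G had a lowest, median and highest level of 1.52, 1.92 and 2.17 on rapeseed oil, against 2.58, 3.08 and 3.18 in the control period of the same 7 cows. These ranges did not overlap, and every cow was lower on oil (-1.06 ± 0.22, limma adjusted p = 0.0124). How many of all probe sets had ranges that did not overlap was not counted, and 20.7% had an unadjusted limma p under 0.05 on rapeseed oil. The values on oil lay near the low end of the arrays, where 5% of all values were under 1.44. On soybean oil it had 1.68, 2.02 and 2.37, against 2.36, 2.59 and 4.64 in the control period, a fall in 7 of 7 cows (-1.04 ± 0.22, limma adjusted p = 0.00325). On linseed oil the change was -0.81 ± 0.24 (limma adjusted p = 0.0780), below 0 in 6 of 6 cows, and with each cow of the study left out in turn the adjusted p lay between 0.0325 and 0.281. On the mixture FCER1G had 1.73, 2.41 and 2.70, against 1.92, 2.21 and 3.70 in the control period, and the change was -0.11 ± 0.22 (adjusted p = 0.873), below 0 in 4 of 7 cows. FCER1G also fell without the 6 cows on rapeseed oil (-1.01, adjusted p = 0.0200) and soybean oil (-0.76, 0.0148) and was not called on linseed oil (-0.65, 0.170) or the mixture (-0.10, 0.846).

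C3 on rapeseed oil had a lowest, median and highest level of 8.08, 9.59 and 10.61, against 9.77, 11.10 and 12.08 in the control period of the same cows. It was 2.67-fold lower (-1.42 ± 0.36, limma adjusted p = 0.0293), in 6 of 7 cows. Without the cows with an array apart, which leaves 5 on rapeseed oil, C3 was not called (-1.05, adjusted p = 0.148) and CFB was (-1.71, adjusted p = 0.0355). C3 was also not called without cow 4, 10, 12, 22 or 23 alone, with an adjusted p of up to 0.104. The change of C3 was -1.06 ± 0.36 on soybean oil (limma adjusted p = 0.0526, and 0.0319 to 0.177 with each cow left out in turn). It was -0.46 ± 0.39 on linseed oil (0.550, and -0.80 with 0.411 without the 6 cows) and -0.40 ± 0.36 on the mixture (0.683).

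CFB on soybean oil had 3.20, 4.33 and 5.88, against 4.08, 6.31 and 8.19 in the control period of the same cows. It was 4.07-fold lower (-2.02 ± 0.54, limma adjusted p = 0.0147), in 6 of 7 cows. Cow 2 was the 1 soybean oil cow with an array apart. Without it the change was -1.53, which was not called when it alone was left out (adjusted p = 0.0906) and was called when all 6 cows were (0.0158). On the other diets its change was -0.99 ± 0.54 (rapeseed, adjusted p = 0.305), -0.26 ± 0.59 (linseed, 0.855) and -1.11 ± 0.54 (mixture, 0.370), and without the 6 cows it was -0.12 on linseed oil (0.929) and -0.68 on the mixture (0.397). With the cow left out of the model, C3 on rapeseed oil (adjusted p = 0.0640) and CFB on soybean oil (0.150) were not called.

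The estimates for C1QA were -0.51 to -0.75 on the 4 diets, with none called (limma adjusted p of 0.354 or more), and those for C1QB -0.13 to -0.51 (0.450 or more). Without the 6 cows C1QA had -1.26 on rapeseed oil (limma adjusted p = 0.0748) and -0.23 on soybean oil (0.725), and C1QB -0.93 on rapeseed oil (0.0662), -0.03 on soybean oil (0.958) and -0.03 on the mixture (0.971), with none called. TYROBP lay between -0.96 on soybean oil (limma adjusted p = 0.123) and -0.16 on rapeseed oil (0.861). The order of the diets turned without the 6 cows, with -0.95 on rapeseed oil (adjusted p = 0.125), -0.70 on soybean oil (0.159), -0.16 on linseed oil (0.882) and -0.03 on the mixture (0.974). AIF1 had a change of 0.88 ± 0.35 on rapeseed oil (limma adjusted p = 0.152), above 0 in 6 of 7 cows, and with single cows left out was called there only without cow 22 (1.21, adjusted p = 0.0470). Without the 6 cows it was 0.39 on rapeseed oil (adjusted p = 0.489) and 0.78 on linseed oil (0.267). COLEC12 had 0.55 ± 0.25 on rapeseed oil (limma adjusted p = 0.214, above 0 in 6 of 7 cows) and -0.64 ± 0.27 on linseed oil (0.214, below 0 in 5 of 6).

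**Figure D3:**
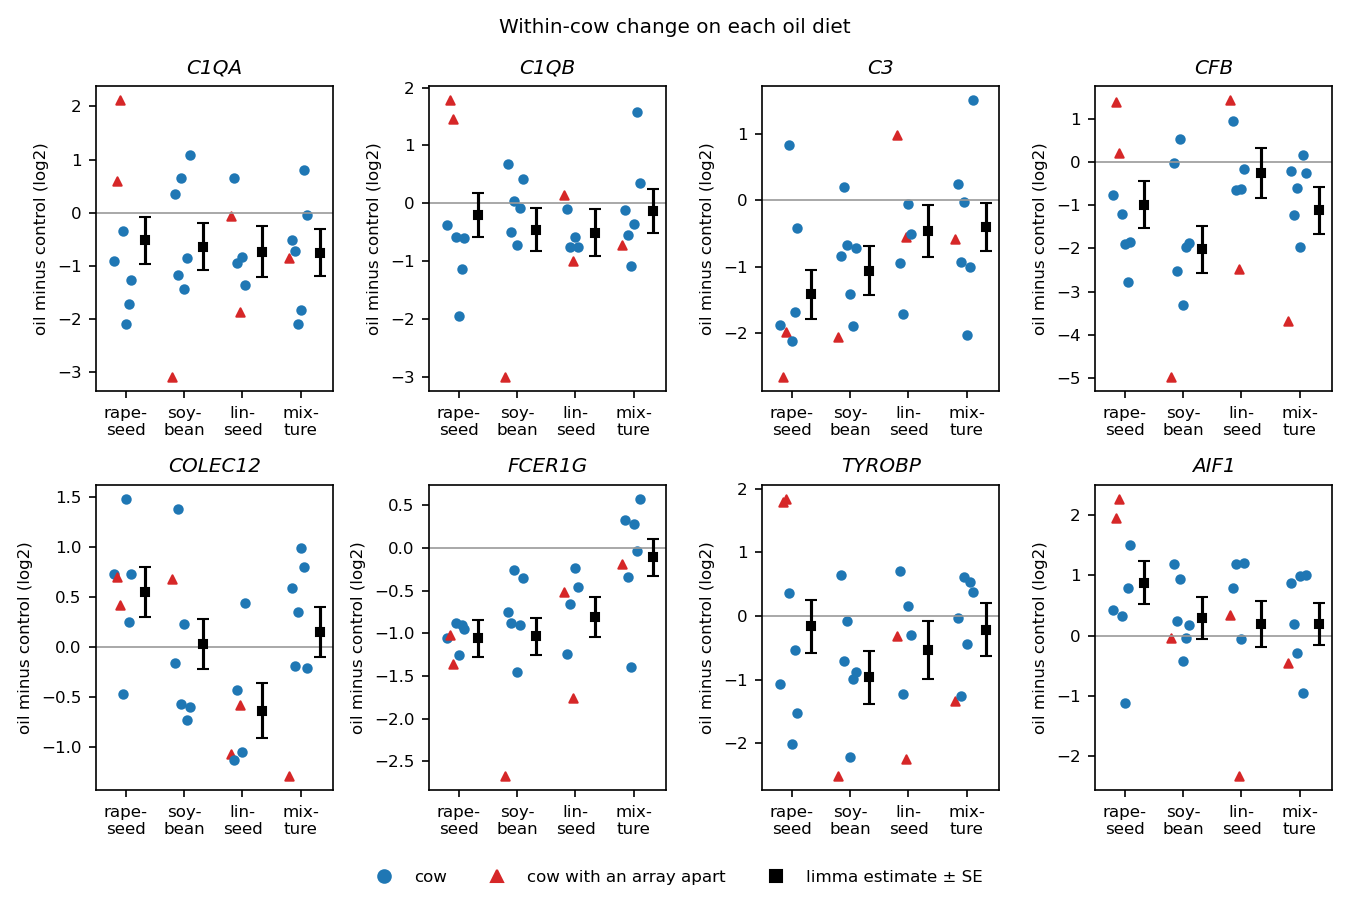
Within-cow change, oil minus control on the log2 scale (y axis), by oil diet (x axis) for the 8 genes. Circles are cows, triangles cows with an array apart, and squares with bars the limma estimate and its SE. FCER1G lies below 0 for every cow on the 3 single oils and on both sides of 0 on the mixture.

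Whether the change depended on the oil was tested with limma's moderated F. Of all probe sets 0 were called (0%), with 486 at an unadjusted p under 0.05, so none of the 8 genes was. FCER1G had F = 4.06 (p = 0.0170, adjusted p = 0.948) and COLEC12 F = 3.47 (p = 0.0302, adjusted p = 0.948), and for the other 6 genes the unadjusted p was 0.185 or more. While the oils were fed, 0 probe sets differed between the 4 diets (0%, 277 at an unadjusted p under 0.05), and the smallest unadjusted p of the 8 genes was 0.222, for FCER1G.

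In the control period, when all cows had the same diet, the earlier oils were set against each other in the same way, with 0 probe sets called (0%, 397 at an unadjusted p under 0.05). COLEC12 had the smallest p of the 8 genes (F = 8.17, p = 5.58e-04, adjusted p = 0.976). Its level averaged 5.16 ± 0.39 after linseed oil (SD, n = 6), 4.41 ± 0.57 after the mixture, 4.39 ± 0.38 after soybean oil and 4.05 ± 0.30 after rapeseed oil (SD, n = 7 each). Every cow after linseed oil (4.62 to 5.64) was above every cow after rapeseed oil (3.74 to 4.53), but this does not hold up after correction over all probe sets. In period I it averaged 4.73 ± 0.68 on linseed oil, 4.56 ± 0.58 on the mixture, 4.43 ± 0.88 on soybean oil and 4.60 ± 0.37 on rapeseed oil (SD, n = 7 each).

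The 7 arrays apart had high values of several of these genes, given here as a description because all genes entered the correlation that set them apart. TYROBP lay 1.80 to 2.85 above the median of the other arrays of its period in all 7, each above the highest of the others. AIF1 lay 1.37 to 3.18 above it in 7 of 7 and CFB 1.68 to 5.77 above it in 7 of 7. C1QA (1.06 to 3.23) and C1QB (1.09 to 2.92) were above the median in all 7 as well. C3 was above the median in 2 of 7, with a range from -0.90 to 0.98, and FCER1G in 5 of 7 (from -0.65 to 2.07). COLEC12 was above the median in 6 of 7 (from -0.10 to 1.24) and above the highest of the others in 0. The median log2 intensity of the arrays apart was 3.41 to 3.60, against 3.24 to 3.42 in the other arrays. How many of all probe sets lay as high in the arrays apart was not counted.

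Co-variation between the 8 genes was measured over the 28 pairs in the within-cow changes of the 21 cows without an array apart. These changes share the array normalization and the make-up of each biopsy. Of the 28 pairs 21 had a positive Pearson's r (median 0.282), and 2 passed after adjustment over the 28 pairs. C1QA and C1QB changed together (r = 0.822, permutation p = 1e-05, adjusted p = 2.80e-04, Spearman's rho = 0.827, permutation p = 1e-05, adjusted p = 2.80e-04). The value 1e-05 is the smallest these permutations can give. Without the 2 cows farthest from the median of C1QA, r was 0.790. CFB and TYROBP also changed together (r = 0.708, permutation p = 3.60e-04, adjusted p = 0.00504, rho = 0.716, permutation p = 4.10e-04, adjusted p = 0.00574, and r = 0.676 without 2 cows). In the 18 of these cows with the oil array in batch 1 and the control array in batch 2, r was 0.86 and 0.663 for these pairs, and 6 of 28 pairs passed. The highest r of AIF1 with another of the 8 genes was 0.29, with FCER1G, and C3 and CFB had r = 0.302 (permutation p = 0.183, adjusted p = 0.321, rho = 0.338, permutation p = 0.136, adjusted p = 0.309).

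Levels were also correlated across cows within each period. In the oil period (25 arrays not apart) 8 of 28 pairs passed, and in the control period (23 arrays not apart, all in batch 2) 21 of 28, of which 17 were positive and 4, all with COLEC12, negative. C1QA and C1QB had r = 0.818 in the oil period (permutation p = 1e-05, adjusted p = 2.80e-04, rho = 0.76, permutation p = 3e-05, adjusted p = 8.40e-04) and r = 0.815 in the control period (permutation p = 2e-05, adjusted p = 1.87e-04, rho = 0.775, permutation p = 1e-05, adjusted p = 1.40e-04). CFB and TYROBP had r = 0.762 in the oil period (permutation p = 3e-05, adjusted p = 2.80e-04, rho = 0.542, permutation p = 0.00592, adjusted p = 0.0276). In the control period they had r = 0.765 (permutation p = 3e-05, adjusted p = 2.10e-04, rho = 0.812, permutation p = 2e-05, adjusted p = 1.40e-04). FCER1G and CFB had r = -0.201 in the oil period (permutation p = 0.338, adjusted p = 0.568, rho = -0.0385, permutation p = 0.855, adjusted p = 0.887). In the control period they had r = 0.822 (permutation p = 1e-05, adjusted p = 1.40e-04, rho = 0.847, permutation p = 1e-05, adjusted p = 1.40e-04). FCER1G and TYROBP had r = 0.102 in the oil period (permutation p = 0.626, adjusted p = 0.762, rho = 0.207, permutation p = 0.318, adjusted p = 0.542). In the control period they had r = 0.802 (permutation p = 1e-05, adjusted p = 1.40e-04, rho = 0.815, permutation p = 2e-05, adjusted p = 1.40e-04). The difference between the periods was not tested. Within the 22 oil period arrays of batch 1, r was 0.88 for C1QA and C1QB, 0.752 for CFB and TYROBP, 0.216 for FCER1G and CFB and 0.383 for FCER1G and TYROBP. Spearman's rho for these pairs was 0.858, 0.444 (permutation p = 0.0382, adjusted p = 0.118), 0.2445 and 0.453. For CFB and TYROBP in batch 1, r was 0.468 without the 2 arrays farthest from the median of CFB. The values that follow are again for all 25 and 23 arrays. Without the 2 arrays farthest from the median of the first gene of a pair in the order listed at the start, r for C1QA and C1QB was 0.736 in the oil period and 0.693 in the control period, and for CFB and TYROBP 0.66 and 0.757. For CFB and FCER1G it was -0.0243 and 0.823, and for FCER1G and TYROBP 0.282 and 0.686.

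**Figure D4:**
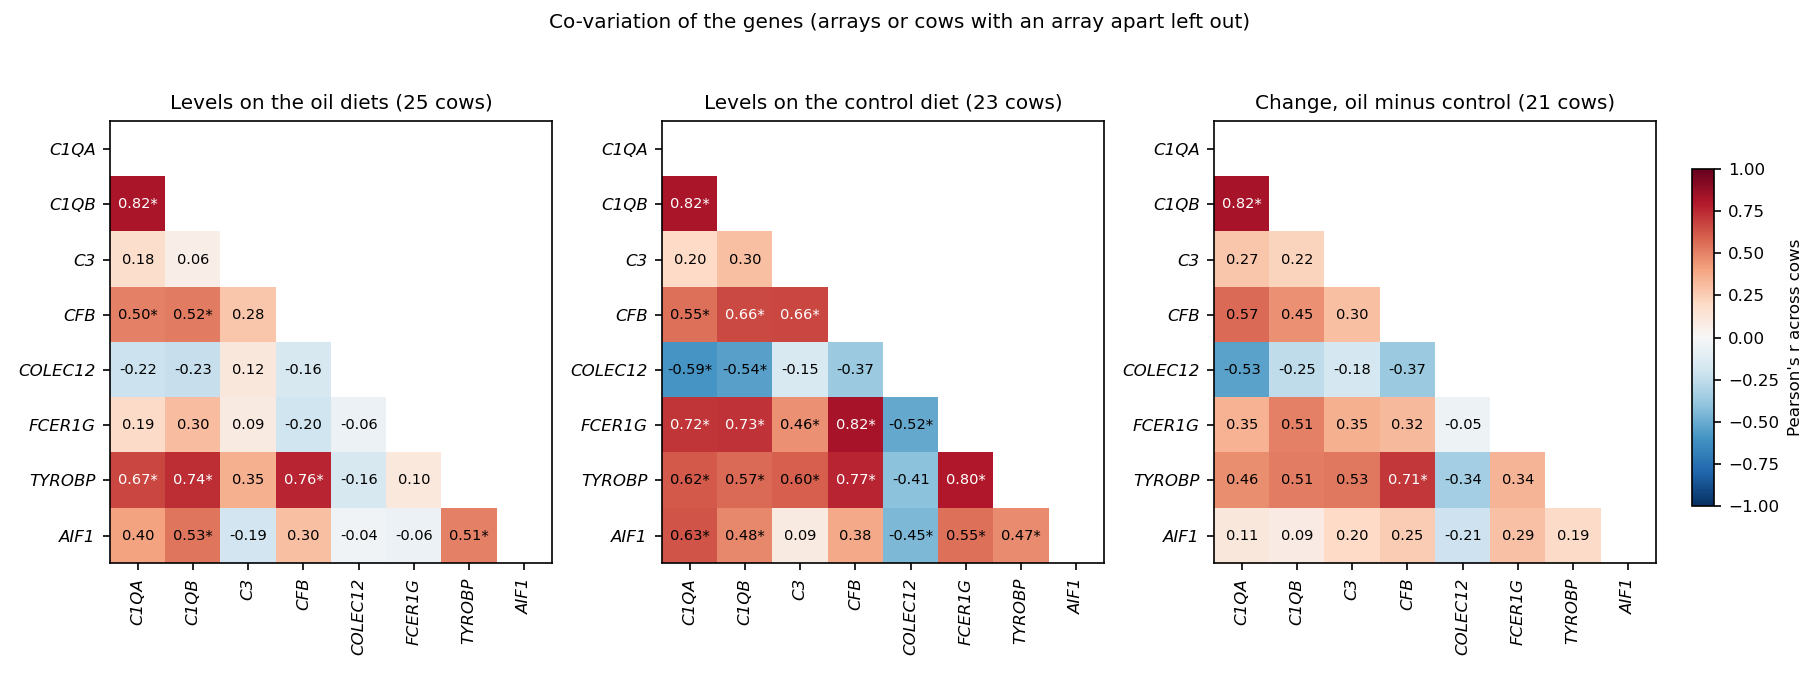
Pearson's r between each pair of the 8 genes across cows, for levels in the oil period (left), levels in the control period (middle) and within-cow changes (right), with arrays or cows apart left out. The colour scale runs from -1 to 1, and a star marks an adjusted p under 0.05 over the 28 pairs. FCER1G has no star in the oil period, where its levels lay near the low end of the arrays. It has one with each of the other 7 genes in the control period.

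Whether a cow kept its place among the others between periods was tested for each of the 8 genes. Among the 21 cows without an array apart, r between the oil and control levels was 0.554 for C1QB (permutation p = 0.00953, adjusted p = 0.0597 over 8 genes, rho = 0.387, permutation p = 0.0835, adjusted p = 0.334) and 0.511 for CFB (permutation p = 0.0149, adjusted p = 0.0597, rho = 0.435, permutation p = 0.0498, adjusted p = 0.334). Without the 2 cows farthest from the median these were 0.212 and 0.255. For the other 6 genes r lay between 0.128 (FCER1G) and 0.318 (C3), and none of the 8 passed.

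Among all other named genes, those whose within-cow change was most like the mean change of C1QA and C1QB over these 21 cows were PSMB9 (r = 0.904), an immunoproteasome subunit, BOLA-DMB (0.835), a class II peptide loading chain, LOC510988 (0.83), the protease inhibitor A2M (0.788) and B2M (0.780), the light chain of class I molecules. Over all 27 cows their r was 0.765 or more. The changes most like that of C3 were those of DIRAS3 (0.78), the small heat shock proteins CRYAB (0.770) and HSPB1 (0.730), EFHD2 (0.751) and the luminal keratin KRT8 (0.730), with r of 0.35 to 0.56 over all 27 cows.

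Other genes of the cascade were read from lists by function. Over all probe sets 34.4% were called, 18.8% higher and 15.6% lower, and the counts of every list that follows stand against these shares. The lists too were chosen with earlier results known, so this is a description and not a test. Of 9 measured complement components, 1 rose and 3 fell, which is 44.4% called, and the median change was -0.24. The falls were C2 (-0.41 ± 0.08, limma adjusted p = 3.31e-04, 22 of 27 cows), which pairs with C4 in the classical pathway, CFD (-0.39 ± 0.13, 0.0209), the protease that cuts factor B, and properdin, CFP (-0.24 ± 0.06, 0.00395), which stabilises the alternative pathway enzyme. C9 of the membrane attack complex rose (0.39 ± 0.08, adjusted p = 3.42e-04), at mean levels of 1.85 in the oil period and 1.48 in the control period. Without the 6 cows CFD was not called (-0.33, adjusted p = 0.0594) and C1S (-0.36, 0.0485) and MASP1 (0.27, 0.0482) were. With batch in the model, C2 (adjusted p = 0.182), CFD (0.305) and CFP (0.07, 0.727) were not called.

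Of 10 measured regulators of complement, 1 rose and 3 fell, which is 40.0% called, and the median change was -0.18. SERPING1, the C1 inhibitor that stops C1r and C1s, fell in 25 of 27 cows (-0.84 ± 0.14, limma adjusted p = 6.61e-05), with means of 6.36 ± 0.62 in the oil period and 7.20 ± 0.90 in the control period (SD, n = 28 and 27 arrays). CLU, clusterin, which blocks the membrane attack complex, fell (-1.16 ± 0.31, adjusted p = 0.00418) as did C4BPA, a brake on C4b (-1.35 ± 0.47, 0.0261). With batch in the model SERPING1 (-1.37, adjusted p = 0.00743) and CLU (-2.85, 0.00527) fell as well and C4BPA was not called (-1.25, 0.447), nor was it without the 6 cows (-0.96, 0.157). Vitronectin, VTN, rose by 0.22 ± 0.07 (adjusted p = 0.0176) at dim levels of 2.01 in the oil period and 1.79 in the control period, and was not called with batch in the model (0.08, 0.773). Of 5 measured complement receptors 1 rose, ITGAM (0.18 ± 0.06, adjusted p = 0.0150), a dim probe set that was not called without the 6 cows (0.0620).

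**Figure D5:**
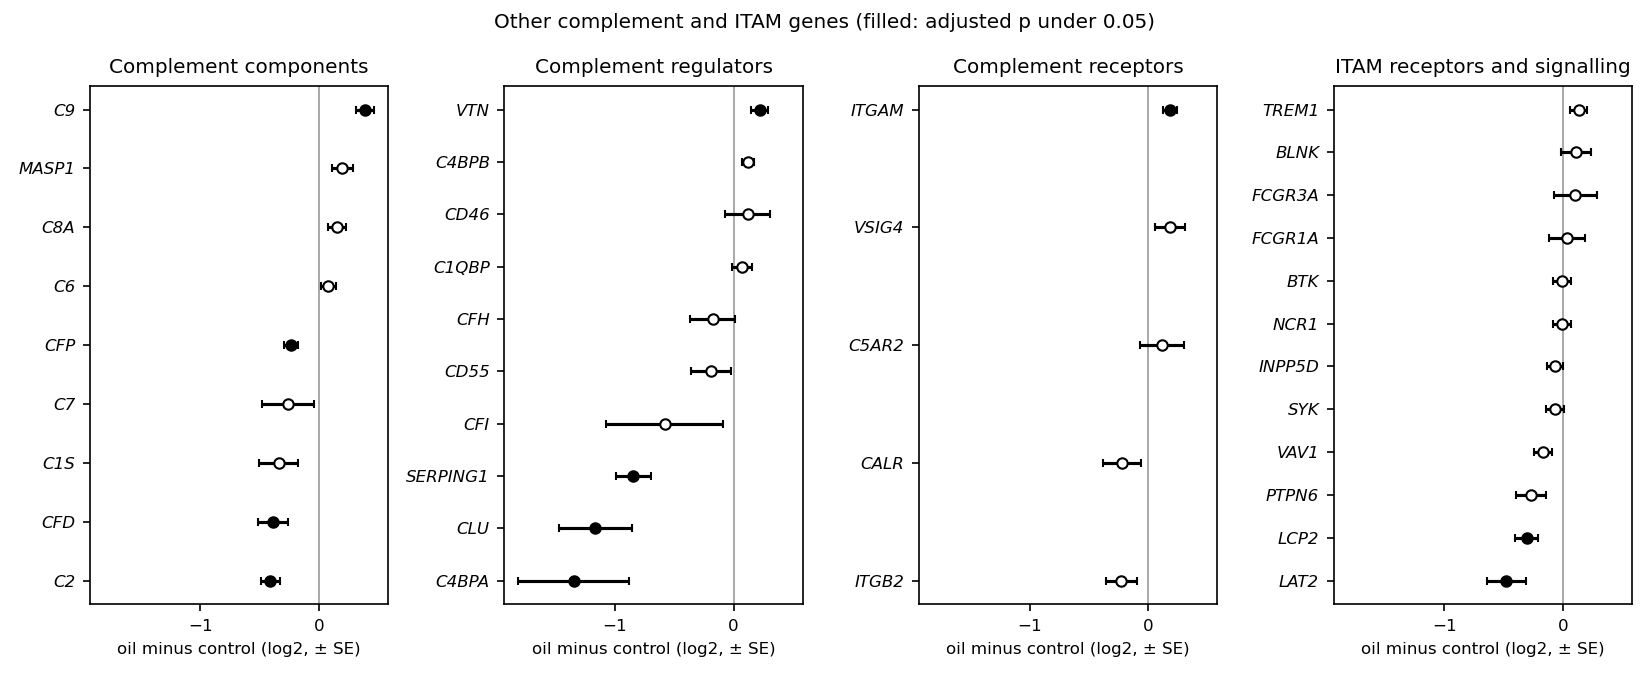
Change, oil minus control on the log2 scale with its SE (x axis), of the other measured complement components, regulators and receptors and of ITAM receptors and signalling genes (y axis), over 27 cows. Filled points passed an adjusted p under 0.05. Of these C2, CFD, CFP, SERPING1, CLU, C4BPA, LCP2 and LAT2 lie left of 0, and C9, VTN and ITGAM lie right of 0.

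The label macrophage was set against markers of that cell type other than the 8 genes. Of 13 measured markers, 1 rose and 1 fell, which is 15.4% called, with a median change of 0.03. LAPTM5, a lysosomal protein of leukocytes, fell (-0.59 ± 0.20, limma adjusted p = 0.0214), and MS4A7 (0.37 ± 0.10, 0.00417) rose. MS4A7 was dim, with mean levels of 2.76 in the oil period and 2.40 in the control period. The other markers, of which all but CD68 were named after their values were seen, were not called. Below 0 were CD68 (-0.36, adjusted p = 0.0814), CSF1R (-0.25, 0.174), CD14 (-0.23, 0.551), FCGR2B (-0.09, 0.550) and CTSS (-0.02, 0.871). Above 0 were MSR1 (0.21, adjusted p = 0.278), VSIG4 (0.18, 0.284), CYBB (0.15, 0.512), FCGR3A (0.11, 0.688), CD86 (0.08, 0.444) and FCGR1A (0.03, 0.886). CSF1R was called lower without the 6 cows (-0.27, adjusted p = 0.0147), as was CD68 (-0.45, 0.0373), and VSIG4 was called higher (0.22, 0.0332). With batch in the model LAPTM5 (-1.23, adjusted p = 0.0610) and MS4A7 (0.36, 0.273) were not called. The summed intensity of the 13 markers ranged from 2260 to 6816 in the oil period (median 3021) and from 2263 to 6657 in the control period (median 3207). No marker was listed at 0, as no intensity in the table was.

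Of 12 measured genes of receptors and signalling that use the ITAM motif carried by FCER1G and TYROBP, 0 rose and 2 fell (median -0.04), the scaffolds LCP2 (-0.31 ± 0.10, limma adjusted p = 0.0143) and LAT2 (-0.48 ± 0.17, 0.0273). That is 16.7% called, against 34.4% of all probe sets. With batch in the model LAT2 fell (-1.13, adjusted p = 0.0394) and LCP2 was not called (-0.17, 0.629). SYK, the kinase that binds the phosphorylated motif, named after its value was seen, had -0.07 ± 0.08 (limma adjusted p = 0.527). Of 13 measured collectins and scavenger receptors, the relatives of COLEC12, 5 rose and 0 fell (median 0.21), which is 38.5% higher, against 18.8% of all probe sets and 22.9% of those with a mean level under 3. These were MBL1 (0.22), MBL2 (0.22), SFTPD (0.23), CGN1 (0.26) and CL46 (0.23), with mean levels of 1.73 to 3.02 in the oil period and 1.52 to 2.76 in the control period, among the dim probe sets. With batch in the model MBL2 (adjusted p = 0.0516), SFTPD (0.263) and CL46 (0.0515) were not called.

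Markers of other cells moved in the same comparison, and their part in the results above was not tested. Over all probe sets 15.6% were called lower and 18.8% higher, and 44.2% had an unadjusted p under 0.05. Luminal epithelium had 0 of 7 higher and 4 lower (median -0.48, led by ELF3, KRT7 and CLDN3), with summed intensities of 1891 to 6423 in the oil period, against 2106 to 7388 in the control period. Fibroblasts had 0 of 8 higher and 5 lower (median -0.45, led by BGN, COL1A1 and FBLN1; 3994 to 23554, against 3650 to 19262). Endothelium had 0 of 8 higher and 4 lower (median -0.30, led by ESAM, ENG and TIE1; 142 to 362, against 191 to 523). Of 8 neutrophil markers 2 rose (MPO and ELANE) and 0 fell, with sums of 40.5 to 284, against 39.5 to 758. Of 11 T and NK cell markers CD5 rose and CD3E fell (78.0 to 285, against 75.3 to 323). Of 2 mast cell markers HDC rose (7.51 to 15.8, against 7.23 to 12.9). Of 4 B and plasma cell markers 0 were called by limma, and 1 (MZB1, -0.42) had an unadjusted p under 0.05 (217 to 4346, against 206 to 6561). The 1 dendritic marker, CCR7, was not called either (0.16, limma p = 0.0373, adjusted p = 0.0904), with sums of 3.20 to 7.46, against 3.50 to 6.84. Of 5 myoepithelial markers KRT17 fell (1134 to 4267, against 1195 to 4298), of 6 adipocyte markers LIPE and PLIN1 rose (473 to 4764, against 389 to 4219), and of 6 milk protein genes 0 were called, and 0 at an unadjusted p under 0.05 (31248 to 86144, against 29683 to 89636). The markers that rose (MPO, ELANE, CD5, HDC, LIPE and PLIN1) were dim, with period means between 1.28 and 2.24. Of probe sets with a mean level under 3, 22.9% were called higher. With batch in the model ELF3 (adjusted p = 0.103), CLDN3 (0.117), MPO (0.395), ELANE (0.849), HDC (0.127), CD5 (0.118) and CD3E (0.166) were not called.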

How the data were processed

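Total RNA of mammary biopsies (2 µg) was hybridised to 1-colour bovine Affymetrix arrays, per the labels. The deposited values are linear intensities, 1 per probe set. RMA and GCRMA are named in the submitters' processing notes, with no version or role given, and the genome build is not given in the sources used here. Here log2 of the deposited intensity was taken, with no further scaling. Of 11495 probe sets, 112 controls were left out and 703 with values identical to another's were merged, leaving 10680. RefSeq accessions in a gene table of assembly ARS-UCD2.0 named 6649 of them, 2 matched several symbols and 4029 had none. Of several probe sets for a gene, that with the highest mean was kept.

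Groups came from the labels' cow, period and diet. The oil period was compared with the control period by limma 3.58.1 (R 4.3.3) in two-sided tests that block on the cow, and p-values were adjusted by Benjamini-Hochberg over all 10680. Changes on each oil came from 1 model with a period effect per oil, and diets were compared with limma's moderated F. The cow pairs the arrays because both come from 1 animal: deviations within a cow had a median r of 0.176 (lowest -0.20, highest 0.676) and exceeded 0.1 for 17 of 27 cows, and between cows the median r was 0.0085. P-values of the tests that block on the cow rest on how the within-cow change varies between cows. Those of tests within 1 period or without the cow rest on the spread of levels between arrays. The number of cows limits the precision. Correlations used 100000 permutations (scipy 1.17.1). The fits were tested on simulated data. The genes and lists were chosen with earlier results of these data known. A gene of the lists is not reported here and is left out of their counts, medians and sums. From each list the called genes and up to 3 with the smallest p were named, and by likeness the 5 genes with the highest r. Alternatives covered scaling, an added 16, a filter on a mean log2 under 4, the block, array weights, batch, array number and single cows.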

Additional observations from a re-analysis of the deposited data

Results flagged for a closer look

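In 64 groups of cows (each gene's levels and changes by diet), 3 held a cow whose gap to the nearest other cow of its diet, as a share of the range of that diet, passed Dixon's 95% critical value. Chance alone gives such a gap in about 1 in 20 groups. The change of C1QB on soybean oil was -3.00 in cow 2, whose control array was apart, and -0.72 to 0.68 in the other cows. The change of AIF1 on linseed oil was -2.33 in cow 15, whose control array was also apart, and -0.06 to 1.21 in the others. The level of TYROBP on soybean oil was 5.67 in cow 9, which had no array apart, and 4.15 to 4.51 in the others. The period I array of cow 9 was in batch 2 and those of the other soybean oil cows in batch 1, so cow and batch cannot be told apart here.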

How the results depend on the processing

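FCER1G, C3, CFB and C1QA kept a change below 0 in the oil period under every alternative in which they were tested, though not every call held. Between the periods 3669 probe sets were called of 10680 tested, and 1520 of the 4441 with a mean log2 of 4 or more (which leaves out FCER1G), 1645 with cow and batch, 597 within batch 1, 403 within batch 2 and 715 with array number. With no replicate block (the pairing by cow left out) 3379 were called, with 157 on rapeseed oil and 27 on linseed oil, against 414 and 138. It ended the calls of C1QA, CFB, C3 on rapeseed oil and CFB on soybean oil, and no other call among the 8 genes changed. Leaving out the 6 cows, 53 were called on linseed oil and 67 on the mixture, where 16 were called with them. With each cow left out the counts were 3391 to 3939 over all oils, 127 to 490 on rapeseed, 647 to 1624 on soybean, 21 to 240 on linseed oil and 1 to 63 on the mixture. COLEC12 took the opposite sign with batch (-0.18), within batch 1 (-0.11), with array number (-0.23) and on soybean oil without the 6 cows (-0.0751). AIF1 did so within batch 1 (-0.98) and with array number (-0.87), and C1QB (0.0673) and TYROBP (0.0855) within batch 2. With single cows left out, COLEC12 ranged from -0.0077 to 0.10 over all oils and from -0.19 to 0.16 on soybean oil, AIF1 from -0.0123 to 0.70 and CFB from -0.59 to 0.19 on linseed oil, C1QB from -0.53 to 0.0915 and TYROBP from -0.49 to 0.15 on rapeseed oil, and C1QB from -0.41 to 0.0306 and FCER1G from -0.23 to 0.10 on the mixture. Of 28 pairs, 2 co-varied in the changes of 21 cows and 7 in all 27 cows. In levels, 8 did in the oil period (5 in batch 1) and 21 in the control period. In the changes of the 18 cows with the oil array in batch 1 and the control array in batch 2, 6 did. These 6 and the 5 came from alternatives chosen after seeing the data. Correlations that changed sign were C3 with AIF1 (-0.10 in all cows, -0.19 in oil period levels, -0.17 in batch 1) and COLEC12 with AIF1 (0.11 in all cows, 0.0068 in batch 1). So did C3 with COLEC12 (0.12 in oil period levels, 0.11 in batch 1). In oil period levels CFB with FCER1G (-0.20) and FCER1G with AIF1 (-0.0606) also did, and C1QB with AIF1 (-0.0073) did in the 18 cows. The causes were not tested. FCER1G lay near the background, which limits its fold.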
